A study of Mus musculus with 11 samples.

Results

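The interferon system was examined in trigeminal ganglion neurons of mice carrying a tumour grown from an oral carcinoma line. The set held 33 genes of the 55401 in the files: interferon receptors, the factors that relay the signal, and genes that interferon switches on. The 33 were matched by gene symbol to a list drawn up with earlier results of these data known, and all 33 were found. The neurons had been filled with DiI, a lipophilic dye taken up by nerve endings and carried back to the cell body, then collected by fluorescence-activated sorting from both ganglia and lysed for poly(A) RNA sequencing. The tumours grew from MOC1 cells, a line derived from an oral carcinoma of the mouse, and the controls were sham mice given the dye. Of the 11 libraries, 6 came from MOC1 mice (3 of each sex) and 5 from sham mice (3 females and 2 males, numbered 1 and 3). No genotype, strain, age, tumour site or time after implantation is given in the sources used here, and the labels do not say whether a library came from 1 mouse, so p-values measure the spread between these libraries. Each library held 10757426 to 16703797 counts on genes.

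Interferons are secreted proteins that warn cells of infection. Type I interferons bind the receptor pair IFNAR1 and IFNAR2, and interferon gamma binds IFNGR1 and IFNGR2. Kinases on the receptors then activate STAT proteins, which enter the nucleus, alone or with IRF9, and start many genes through short DNA elements: the interferon-stimulated response element (ISRE) and the gamma-activated site (GAS). The products block viral replication, attack vacuoles that hold pathogens, or draw T cells. Sensory neurons and the satellite glia that wrap their cell bodies both carry interferon receptors.

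Promoter sequence was available for 28 of the 33 genes (RefSeq, GRCm38.p6). The 250 bases before each start were searched on both strands for the ISRE core, GAAA and GAAA with any 2 bases between them (TTTC and TTTC on the other strand), and for the GAS core TTCNNNGAA. Matches of the ISRE core were found in 13 of the 28 genes (46.4%), against 3.46% of all 27025 genes with such a window. Matches of the GAS core were found in 7 of the 28 genes (25%), against 8.13% of all genes. The sequences below are the matches, with flanking bases, of 5 of the 8 genes that passed the test for a change with tumour. They are written 5′ to 3′ on the strand of the gene, and capitals mark the matched letters; overlapping matches run together.
Irf1: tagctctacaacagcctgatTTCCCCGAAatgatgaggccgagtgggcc
Cxcl10: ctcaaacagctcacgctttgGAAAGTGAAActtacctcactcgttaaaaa
Irgm1: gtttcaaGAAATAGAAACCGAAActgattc
Gbp3: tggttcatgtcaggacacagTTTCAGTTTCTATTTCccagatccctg
Gbp7: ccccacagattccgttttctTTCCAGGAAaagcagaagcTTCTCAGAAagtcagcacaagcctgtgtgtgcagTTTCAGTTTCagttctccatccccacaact
The Irf1 window lies at chr11:53769904-53769952 on the plus strand and holds a GAS core only. The Cxcl10 window lies at chr5:92349073-92349122 on the minus strand and the Gbp3 window at chr3:142559979-142560025 on the plus strand, and both hold the ISRE core only. The Irgm1 window, chr11:48871428-48871457 on the minus strand, also holds only the ISRE core, and it falls inside the gene as the deposited annotation places it. In the Gbp7 window, chr3:142530210-142530312 on the plus strand, both cores are present. The window of Ifitm3, another gene that changed, held neither, and those of Iigp1 and Parp14 were not analysed here.

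The same cores stand before genes whose levels did not pass the test. The next 3 were chosen after their values were seen, 1 from each of 3 families, to set beside the first 5.
Igtp: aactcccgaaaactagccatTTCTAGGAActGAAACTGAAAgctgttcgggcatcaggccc
Ifit1: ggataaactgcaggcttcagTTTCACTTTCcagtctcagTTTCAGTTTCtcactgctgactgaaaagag
Isg15: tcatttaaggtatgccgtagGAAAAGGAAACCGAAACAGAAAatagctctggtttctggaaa
The Igtp window is chr11:58199491-58199551 (plus strand), that of Ifit1 is chr19:34640765-34640833 (plus strand) and that of Isg15 is chr4:156200855-156200916 (minus strand). The ISRE core was present in 4 of 6 genes that changed (66.7%) and in 9 of 22 that did not pass (40.9%). The GAS core was present in 2 of 6 (33.3%) and 5 of 22 (22.7%). A match describes the letters only, and no binding was measured.

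The sorted libraries were checked against markers of the cells a ganglion holds. All 20 pan-neuronal markers were tested, and their summed level was 15193 to 17219 CPM (counts scaled to the size of each library) in the MOC1 libraries and 11914 to 14820 in the sham libraries, with no overlap; 9 of the 20 rose. Satellite glia markers were also present and lower with tumour: 16 genes summed to 3381 to 5948 CPM in MOC1 and 9102 to 11008 in sham, with 15 of the 16 passing the test. Schwann cell markers overlapped in their sum, at 2866 to 3125 CPM in MOC1 and 3003 to 3275 in sham, while 5 of the 15 fell and 2 rose. The best-expressed of them went both ways by mean. L1cam was at 950 CPM in MOC1 and 819 in sham, Scn7a at 818 and 654, Pmp22 at 519 and 499, and Ncam1 at 283 and 442. The similar sums therefore do not show that Schwann cell content was equal. Of the 10 fibroblast markers 1 passed the test, lower in MOC1; they summed to 75.3 to 118 CPM in MOC1 and 123 to 212 in sham, and Dpt was at 0. Endothelial and mural markers reached 1813 CPM in sham female 1 and 246 to 479 in every other library. The 17 macrophage and microglia markers, of which 1 fell, summed to 146 to 190 CPM in MOC1 and 167 to 230 in sham. B and plasma cell markers, mostly Ighm, summed to 4.08 to 8.96 and 5.81 to 19 CPM, and none of the 3 tested passed. Markers of T and NK cells summed to at most 5.44 CPM, with Cd3e, Cd3g, Cd8a and Klrb1c at 0 in all libraries.

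Against that background, the interferon genes were lower with tumour where they moved. Of the 33, 8 passed an adjusted p of 0.05 in edgeR's quasi-likelihood test with sex as a term, and all 8 fell with tumour: Irf1, Cxcl10, Irgm1, Iigp1, Gbp3, Gbp7, Ifitm3 and Parp14; scaled to satellite glia markers instead, the last 4 lay above 0. None rose. Among all 16817 genes tested, 4.28% fell and 2.34% rose. At an unadjusted p of 0.05, 17 of the 33 were lower, against 10.1% of all genes, and none was higher. The log2 change was below 0 in 26 of the 33, with a median of −0.59 over the 33 and −0.03 over all genes. In these bulk libraries, fewer cells of a type and less RNA per cell cannot be told apart.

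By role, no receptor, no Ifit gene and no gene of the Isg15 system passed the test. Of the immunity-related GTPases and of the guanylate-binding proteins, 2 of 3 fell in each, and the GTPase Mx1 did not pass. These groups are small, and differences between them were not tested. The level of the genes also covered a wide range: per kilobase of exon, the mean over all libraries ran from 67.9 CPM for Ifi27 and 46.0 CPM for Ifitm3 down to 0.979 CPM for Usp18 and 0.323 CPM for Mx1. Among the genes that fell, Cxcl10 stood at 18.6 CPM per kilobase, close to Ifit2 at 18.7, which did not pass.

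**Figure D1:**
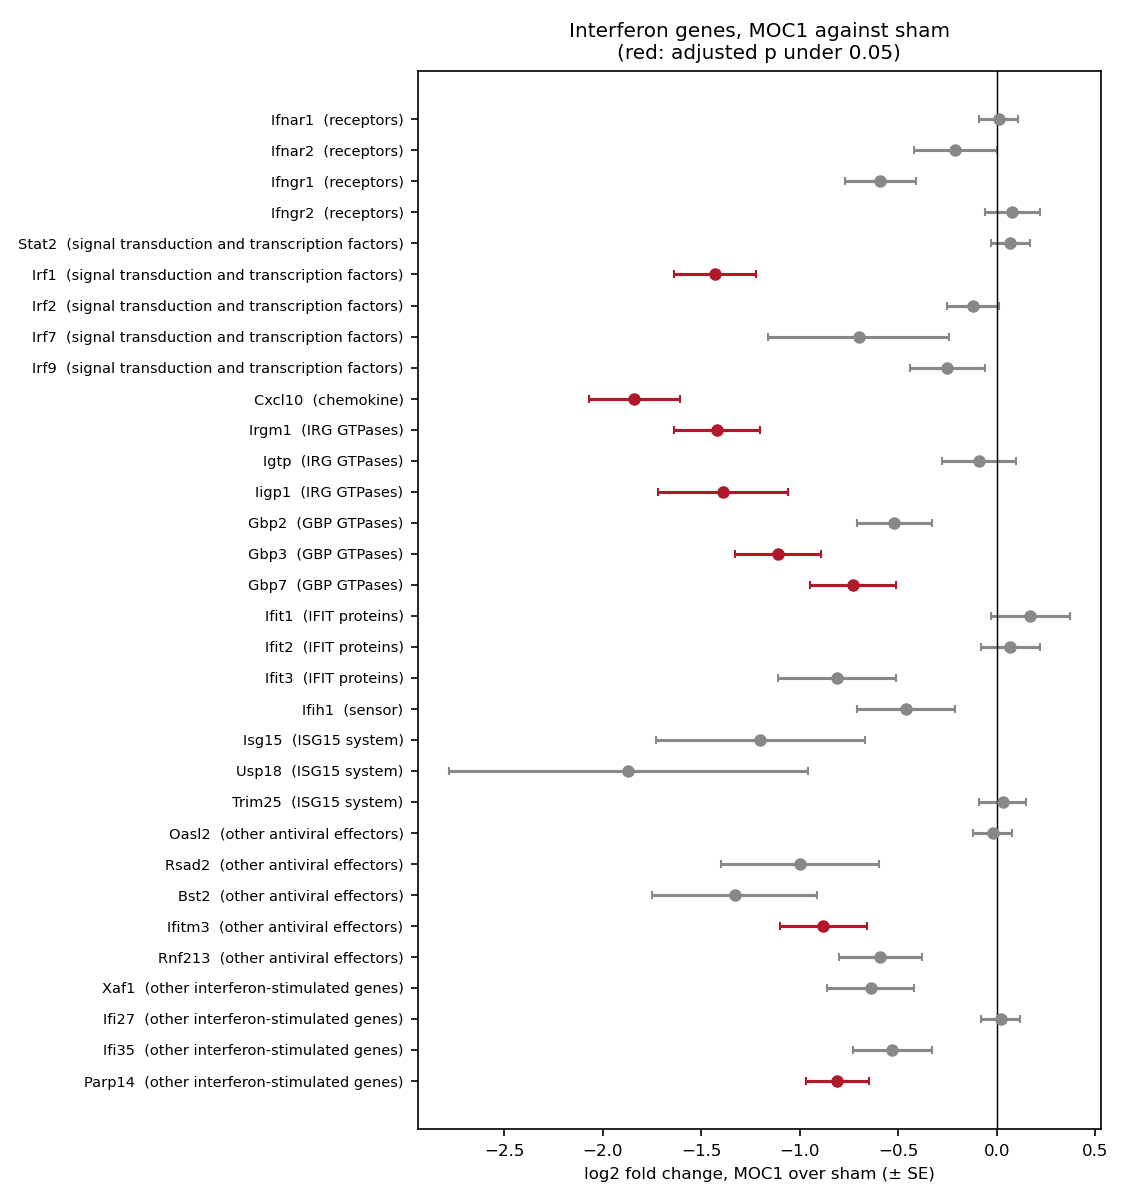
Log2 fold change of each interferon gene in MOC1 over sham libraries (horizontal axis, points) with its standard error (bars), grouped by role; red marks an adjusted p under 0.05. The 8 red points all lie left of 0, from −1.84 for Cxcl10 to −0.73 for Gbp7 (Gbp3, Gbp7, Ifitm3 and Parp14 move above 0 if scaled to satellite glia markers), while Ifnar1, Stat2, Trim25, Oasl2 and Ifi27 lie within 0.1 of 0. Mx1, absent from 3 libraries, is left out.

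The receptors stand first in the pathway, and none of the 4 passed the test. Ifnar1, the signalling chain of the type I receptor, was measured at 79.6 ± 7.31 CPM in MOC1 (SD, n = 6) and 78.2 ± 7.09 in sham (SD, n = 5), a log2 difference of 0.01 with a 95% interval of −0.19 to 0.22. Its partner Ifnar2 was at 15.5 ± 2.36 and 18.2 ± 4.95 CPM, a difference of −0.21 (−0.66 to 0.24). Ifngr2, the accessory chain for interferon gamma, was at 57.7 ± 9.72 and 54.5 ± 6.96 CPM, a difference of 0.08 (−0.20 to 0.37). All 3 intervals include 0 and none reaches the change fitted for any gene that fell.

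Ifngr1, the chain that binds interferon gamma, was the receptor nearest the threshold. Its level was 35.2, 34.4 and 34.3 CPM in sham females and 30.1 and 28.4 CPM in sham males, and 16.8, 20.2 and 31.7 CPM at the lowest, median and highest of the 6 MOC1 libraries. The highest MOC1 library lay above both sham males, so the groups overlapped. The log2 difference was −0.59 ± 0.18 (SE), with an adjusted p of 0.0525 in edgeR and a call in DESeq2.

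Among the factors downstream of the receptors, Irf1 alone fell. Irf1 is a transcription factor that interferon gamma induces and that in turn switches on many antiviral and antigen-presentation genes. It was at 51.9, 103 and 57.5 CPM in sham females 1, 2 and 3 and at 47.9 and 35.9 CPM in sham males 1 and 3, against 16.2, 20.7 and 27.3 CPM at the lowest, median and highest MOC1 library. Every MOC1 library lay below every sham library, and sham female 2 was far above the rest. The mean was 2.82-fold higher in sham, and the log2 change was −1.43 ± 0.21 (SE, adjusted p = 0.000247 in edgeR).

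The other 4 factors did not pass. Stat2, which joins IRF9 in the complex that reads the ISRE, was at 102 ± 8.11 CPM in MOC1 and 96.7 ± 11.8 in sham (SD, n = 6 and 5), with an interval of −0.13 to 0.28 for the log2 difference. Irf9, the DNA-binding part of that complex, differed by −0.25 (−0.65 to 0.15). Irf2, which competes with IRF1 for the same sites, differed by −0.12 (−0.40 to 0.17). Irf7, the master factor of type I interferon production, was low, at 4.86 ± 1.56 and 8.45 ± 7.49 CPM, and its sham mean rested on sham female 1 at 21.7 CPM, where the next sham library had 6.72.

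Cxcl10 had the most negative change among the 8 genes that fell. It encodes a chemokine that attracts activated T and NK cells through CXCR3. In sham females it was at 45.9, 131 and 73.4 CPM and in sham males at 40.2 and 60.2 CPM. In MOC1 the lowest, median and highest libraries had 11.7, 17.6 and 28.9 CPM. The groups did not overlap, and sham female 2 was again the highest library. The sham mean was 3.78-fold the MOC1 mean (70.1 ± 36.3 against 18.5 ± 5.67 CPM), with a log2 change of −1.84 ± 0.23 (SE, adjusted p = 4.62e-05 in edgeR).

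**Figure D2:**
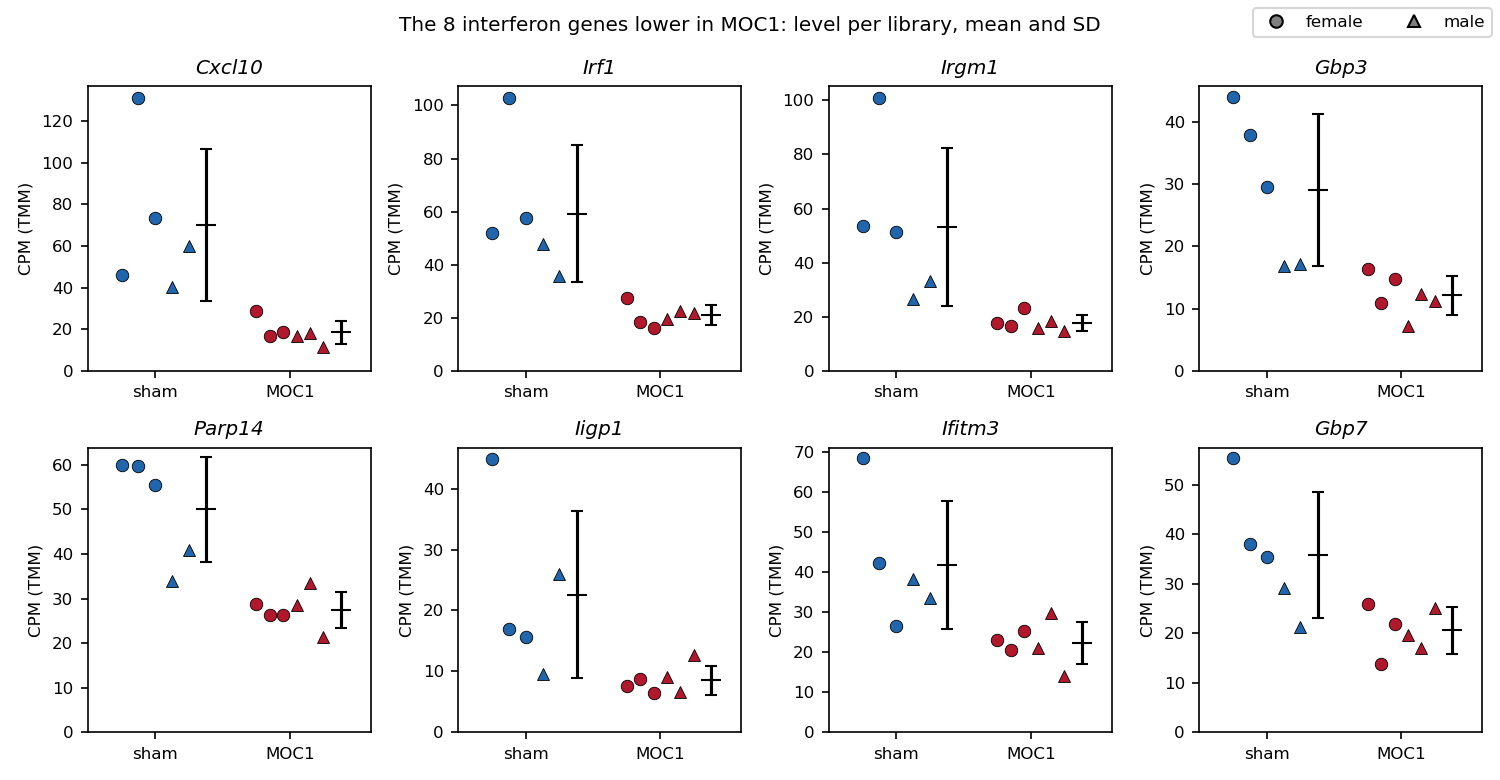
Level of each of the 8 genes that fell, in CPM on a linear axis from 0, with 1 point per library (circles female, triangles male) and the mean with SD of the 5 sham and the 6 MOC1 libraries beside the points. For Irf1, Cxcl10, Irgm1, Gbp3 and Parp14 the lowest sham point lies above the highest MOC1 point; for Iigp1, Gbp7 and Ifitm3 some points overlap.

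The immunity-related GTPases (IRG), which coat and break vacuoles around intracellular pathogens, had 2 of 3 members that fell. Irgm1, which regulates the other IRG proteins, was at 53.6, 101 and 51.4 CPM in sham females and 26.5 and 33.2 CPM in sham males, and at 14.7, 17.1 and 23.1 CPM at the lowest, median and highest MOC1 library. The groups did not overlap, although sham males sat nearer to the MOC1 libraries than sham females did. The log2 change was −1.42 ± 0.22 (SE, adjusted p = 0.000401 in edgeR), a 2.99-fold higher sham mean.

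Iigp1, an effector IRG that disrupts the vacuole membrane, was at 44.8, 17.0 and 15.6 CPM in sham females, 9.61 and 25.9 CPM in sham males, and 6.47, 8.2 and 12.7 CPM at the lowest, median and highest MOC1 library. Sham male 1 lay inside the MOC1 range. The log2 change was −1.39 ± 0.33 (SE, adjusted p = 0.015 in edgeR), and the call was lost without sham female 1 (−1, adjusted p = 0.0508) and without sham male 3 (−1.26, adjusted p = 0.0775). Igtp, also called Irgm3, was at 36.4, 47.3, 32.0, 29.9 and 36.5 CPM in sham and 19.3, 29.7 and 56.4 CPM in MOC1, with a log2 difference of −0.09 (95% interval −0.49 to 0.30). The interval for Igtp did not reach the change fitted for Irgm1, which lies on the same chromosome and also carries an ISRE core before its start. Whether the 2 genes differed in their change was not tested.

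The guanylate-binding proteins (GBP), larger GTPases that act on vacuoles and cytosolic bacteria, lie together on chromosome 3: Gbp7 at chr3:142530342-142550149, Gbp3 at chr3:142560026-142573209 and Gbp2 at chr3:142620602-142638008 (GRCm38). Gbp3 was at 43.9, 37.9 and 29.5 CPM in sham females, 16.8 and 17.1 CPM in sham males and 7.27, 11.8 and 16.3 CPM in MOC1 (lowest, median, highest). The sham males stood just above the top MOC1 library, and the sham females well above it. Its log2 change was −1.11 ± 0.22 (SE, adjusted p = 0.00295 in edgeR).

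Gbp7 was at 55.5, 38 and 35.5 CPM in sham females, 29.1 and 21.4 CPM in sham males and 13.9, 20.8 and 26.0 CPM in MOC1. Sham male 3 lay within the MOC1 range. For Gbp7 the log2 change was −0.73 ± 0.22 (SE, adjusted p = 0.0496 in edgeR), and this call was lost in 9 of the 11 fits that left out 1 library, kept only without MOC1 male 3 and without sham male 3; without sham female 1 the change was −0.57. Gbp2 was at 27.5 ± 8.03 CPM in sham and 18.2 ± 4.69 in MOC1, with a log2 difference of −0.52 ± 0.19 and an adjusted p of 0.112. These genes have close relatives in the same cluster, and the sources used here do not say how reads that map to several copies were counted.

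The 3 Ifit genes, whose proteins bind viral RNA or block translation, lie in 1 cluster on chromosome 19 with related copies between Ifit3 and Ifit1, and did not pass. Ifit1 was at 52.3, 25.3, 37.4, 21.4 and 32.5 CPM in sham and 27.5, 35.5 and 53.7 CPM in MOC1 (lowest, median, highest), with a log2 difference of 0.17 (95% interval −0.25 to 0.60). Ifit2 was at 108, 55.2, 69.0, 58.6 and 69.4 CPM in sham and 59.9, 75.5 and 87.2 CPM in MOC1, a difference of 0.07 (−0.25 to 0.38). Both ranges overlapped broadly. Ifit3 had a lower mean with tumour, 10.8 ± 3.08 against 19.1 ± 9.57 CPM, with a log2 difference of −0.81 ± 0.30 and an adjusted p of 0.137; its sham libraries ranged from 10.2 to 31.8 CPM. The Ifit1 and Ifit3 promoters each hold 2 ISRE cores in the window searched.

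The cytosolic sensor Ifih1 (MDA5), which detects long double-stranded RNA, was at 20.8 ± 8.91 CPM in MOC1 and 30.4 ± 10.2 in sham (SD, n = 6 and 5), a log2 difference of −0.46 ± 0.25 with an adjusted p of 0.363. Isg15, a ubiquitin-like protein attached to targets during infection, was low: 8.21, 11.6, 7.20, 3.43 and 4.88 CPM in sham and 1.07, 2.59 and 5.26 CPM in MOC1. The ranges overlapped through both sham males. Its log2 difference of −1.20 had an SE of 0.53, so the adjusted p was 0.222. Usp18, the protease that removes ISG15 and dampens receptor signalling, was lower still, at 1.56 ± 1.31 and 4.14 ± 1.71 CPM, with −1.87 ± 0.91 (SE, adjusted p = 0.285). Trim25, a ubiquitin ligase of RNA sensing that interferon also induces, differed by 0.03 (−0.21 to 0.28) at about 50 CPM.

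Of the other antiviral effectors, Ifitm3 fell. Its membrane protein blocks entry of viruses from endosomes. It was at 68.4, 42.4 and 26.5 CPM in sham females and 38.3 and 33.6 CPM in sham males, and at 14.0, 22.0 and 29.8 CPM at the lowest, median and highest MOC1 library. The sham libraries were higher apart from sham female 3, which lay inside the MOC1 range. Ifitm3 had a log2 change of −0.88 ± 0.22 (SE, adjusted p = 0.0198 in edgeR), and the call was lost without sham female 1 (−0.65, adjusted p = 0.0642) and without MOC1 female 2 (−0.83, adjusted p = 0.0625).

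Bst2 (tetherin), which holds budding virus on the cell surface, was at 18.1, 10.1, 9.21, 3.56 and 12.4 CPM in sham and 1.51, 4.36 and 6.40 CPM in MOC1. Only sham male 1 fell within the MOC1 range. The log2 difference was −1.33 ± 0.42, with an adjusted p of 0.072 in edgeR and a call in DESeq2. Rsad2 (viperin), which makes a chain-terminating nucleotide, had a sham mean of 31.3 ± 32.1 CPM that came mainly from sham female 1 at 88.2 CPM; the other sham libraries had 9.99 to 21 CPM. Rnf213, a large ubiquitin ligase, was at 71.7 ± 30 CPM in sham and 45.6 ± 13.4 in MOC1 (adjusted p = 0.108). Oasl2, of the oligoadenylate synthetase family, differed by −0.02 (−0.23 to 0.18) at 90.6 ± 4.88 and 92.4 ± 12.6 CPM.

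Mx1, a dynamin-like GTPase that blocks viral ribonucleoproteins, was counted only sparsely. MOC1 females 1, 2 and 3 had 0 counts each, which allows up to 3 counts each, or 0.279, 0.195 and 0.216 CPM. MOC1 males had 18, 66 and 3 counts, sham females 26, 27 and 14, and sham males 10 and 52. Counts were thus absent from MOC1 females and uneven elsewhere, and no fold is given. The adjusted p for tumour was 0.348.

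Of the remaining 4 genes, Parp14 fell. It is an ADP-ribosyltransferase that interferon induces. It was at 60, 59.6 and 55.4 CPM in sham females and 34.0 and 40.9 CPM in sham males, and at 21.4, 27.3 and 33.5 CPM at the lowest, median and highest MOC1 library. The groups did not overlap, though sham male 1 stood only just above the top MOC1 library. Parp14 had a log2 change of −0.81 ± 0.16 (SE, adjusted p = 0.00322 in edgeR).

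Xaf1, a promoter of cell death, showed a small gap of the same direction without passing. It was at 20.8, 21.4, 21.4, 17.3 and 16.3 CPM in sham and 8.04, 12.7 and 16.0 CPM in MOC1. All MOC1 libraries were below all sham libraries, and the adjusted p was 0.0902 for −0.64 ± 0.22. Ifi35 differed by −0.53 ± 0.20 (adjusted p = 0.150). Ifi27, a small mitochondrial or nuclear-envelope protein, was at 99.9 ± 12.8 and 99.1 ± 5.56 CPM, a difference of 0.02 (−0.18 to 0.22).

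Counted without a model, the MOC1 and sham libraries did not overlap for 6 of the 33 genes, and MOC1 was the lower group for all 6: Irf1, Cxcl10, Irgm1, Gbp3, Xaf1 and Parp14. Of all genes, 4.18% had this pattern with MOC1 lower and 2.15% with MOC1 higher. The other 27 overlapped. Irf1, Cxcl10, Irgm1, Gbp3 and Parp14 passed in each of the 11 fits that left out 1 library; the count of the 33 that passed was 5 without sham female 1.

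Single libraries carried many of the highest values. Sham female 1 was the highest of the 11 for 17 of the 33 genes and sham female 2 for 7, including Cxcl10, Irf1 and Irgm1. MOC1 female 3 was the highest for 5, MOC1 male 2 for 3 and sham female 3 for 1. Sham female 1 was also the library with 1813 CPM of endothelial and mural markers and 53.9 CPM of neutrophil and mast cell markers, where all others had at most 6.63 CPM of the last. With the endothelial and mural share as a covariate, 5 of the 33 passed, the same 5 as without sham female 1.

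**Figure D3:**
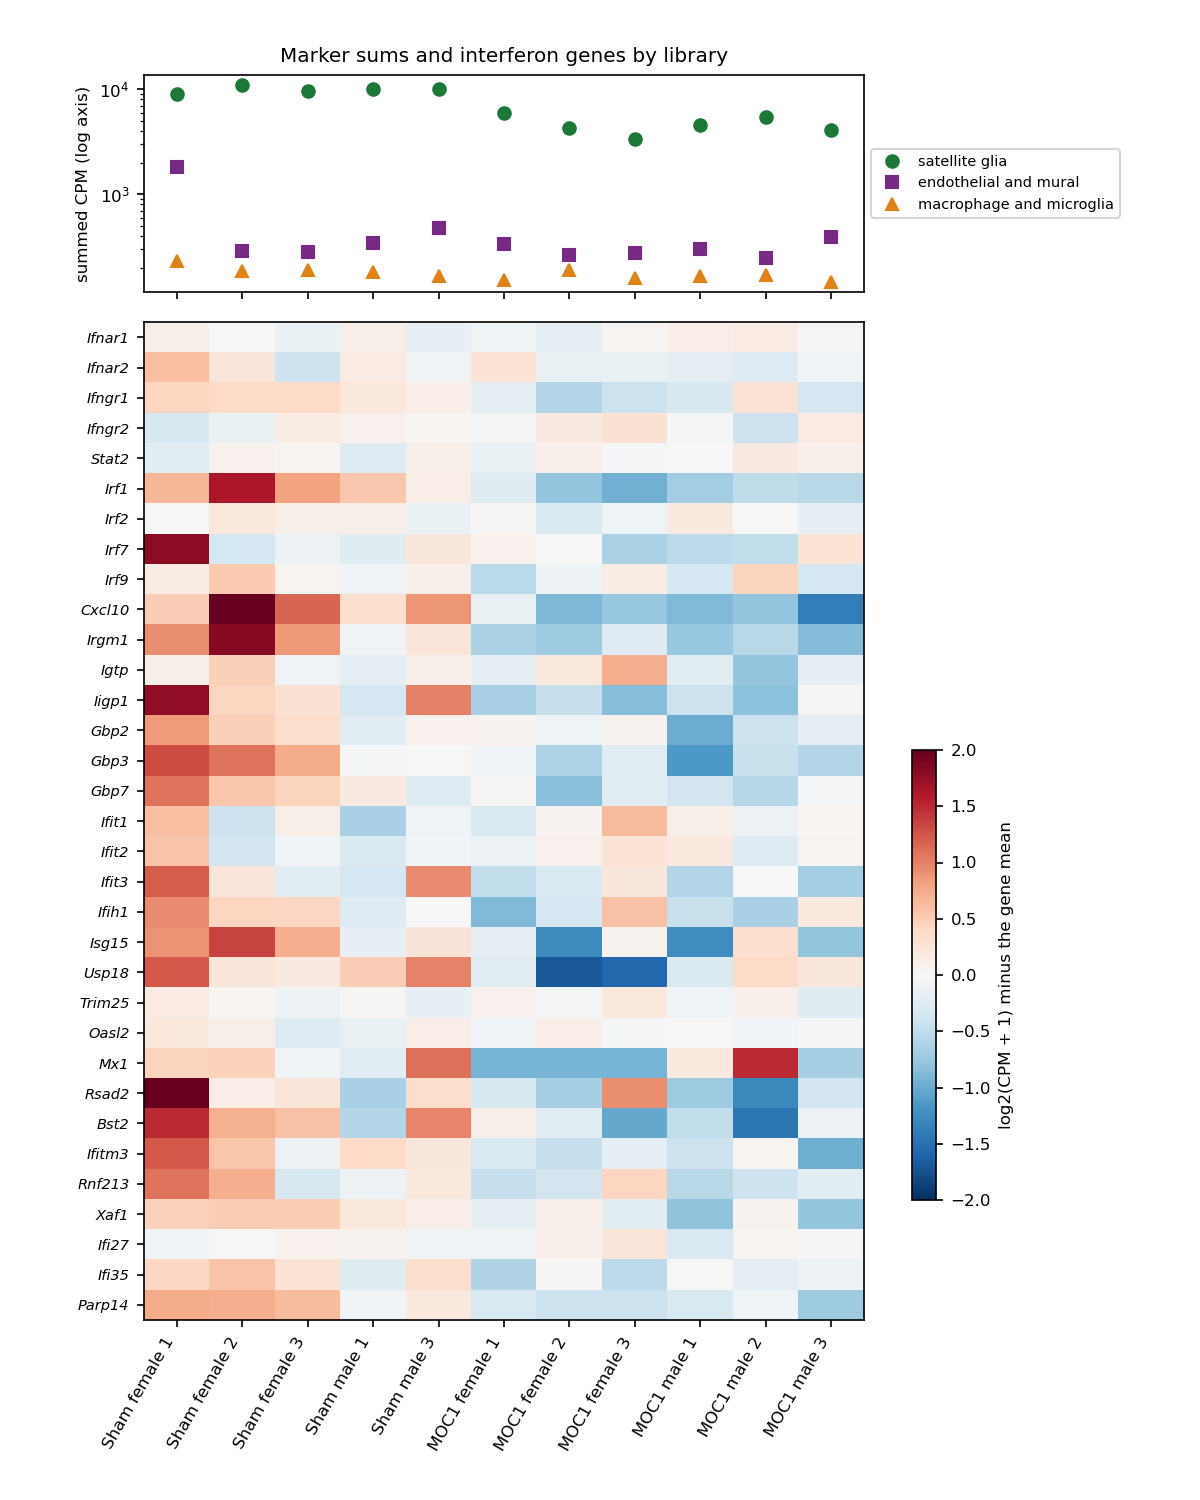
Upper panel, summed CPM of 3 marker lists per library on a log axis; lower panel, log2(CPM + 1) of each interferon gene minus its mean over the 11 libraries (colour, ending at 2 in each direction), by library (columns) and gene (rows, by role). Sham female 1 has the highest endothelial and mural sum and is the highest library for 17 genes, and satellite glia markers are lower in all MOC1 libraries.

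The satellite glia markers were lower in the MOC1 group, as were the interferon genes that fell, and their part in the fall was not tested. Within the groups the 2 measures ran together for some genes and libraries and not for others. Sham female 1, the highest library for 17 of the 33 genes, had the lowest glial sum of the sham libraries (9102 CPM). MOC1 female 3, the highest for 5, had the lowest of all (3381 CPM). Sham female 2, the highest for 7, including Irf1, Cxcl10 and Irgm1, had the highest glial sum (11008 CPM). MOC1 female 1 had the highest glial sum of the MOC1 libraries (5948 CPM). Among these libraries it was the highest for Irf1, Cxcl10, Gbp3 and Gbp7, and not for Irgm1, Iigp1, Ifitm3 or Parp14. When libraries were scaled to equal pan-neuronal markers, 15 of the 33 passed, all lower, and the median over the 33 was −0.90 against −0.30 for all genes. When scaled to equal satellite glia markers, only Cxcl10 was still called lower (−0.71, adjusted p = 0.00562), Irf1, Irgm1 and Iigp1 were below 0 without passing (−0.31, −0.24 and −0.26), and Gbp3, Gbp7, Ifitm3 and Parp14 were above 0 (0.02, 0.40, 0.24 and 0.31). Under that scaling 17 of the 33 were called higher. It moved the median of all genes to 1.11 and that of the 33 to 0.52. With the glial share as a covariate no gene of the 33 passed, and none of all genes did (1130 at an unadjusted p of 0.05, 7 of them among the 33). The glial share did not overlap between groups, so it and the tumour cannot be told apart.

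The comparison was also made within each sex. Females had 8 of the 33 genes that fell, against 3.15% of all genes, and none that rose (1.33% of all genes). The 8 were Irf1, Cxcl10, Irgm1, Iigp1, Gbp3, Gbp7, Parp14 and Ifngr1. Irgm1 fell from 68.6 CPM in sham females to 19.1 in MOC1 females, a log2 change of −1.84 (adjusted p = 0.000469 in edgeR). Irf1 fell from 70.8 to 20.6 CPM (−1.78, adjusted p = 0.00066) and Ifngr1 from 34.6 to 19.4 CPM (−0.84, adjusted p = 0.0423). The median over the 33 was −0.74 in females, beside −0.04 for all genes. The count of 8 was 5 without sham female 1, without MOC1 female 2 and with the endothelial and mural share as a covariate. Scaled to satellite glia markers, 2 of the 33 fell in females and 12 rose.

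In males, with 3 MOC1 and 2 sham libraries, Cxcl10 alone passed, at 50.2 CPM in sham and 15.6 in MOC1 (log2 −1.68 ± 0.35, adjusted p = 0.0186 in edgeR). Of all genes, 1.09% fell and 0.166% rose. The median over the 33 was −0.30 in males and 0.01 over all genes, and 5 of the 33 were lower at an unadjusted p of 0.05, against 4.82% of all genes. The call for Cxcl10 in males was lost without any 1 of MOC1 male 1, 2 or 3 or sham male 3.

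Whether tumour acted differently in the sexes was tested as an interaction. No gene of the 33 passed it in edgeR or DESeq2, and no gene at all did in edgeR (0% of all genes). On simulated counts the edgeR interaction test recovered 1.54% of 1.5-fold, 25.4% of 2-fold and 61.8% of 4-fold differences. The changed genes were drawn at random from all 16817 tested, and rates for the 33 alone were not computed. A difference between the sexes could go uncalled here. At an unadjusted p of 0.05 there were 3 of the 33 (Irgm1, Parp14 and Mx1), against 4.21% of all genes. The change was more negative in females for 25 of the 33, and for 54.5% of all genes. Irgm1 differed most between sexes among those with counts in all libraries and p under 0.05, by −0.98 ± 0.38 (SE, adjusted p = 1 in edgeR), and Parp14 by −0.68 ± 0.28 (SE, adjusted p = 1 in edgeR).

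**Figure D4:**
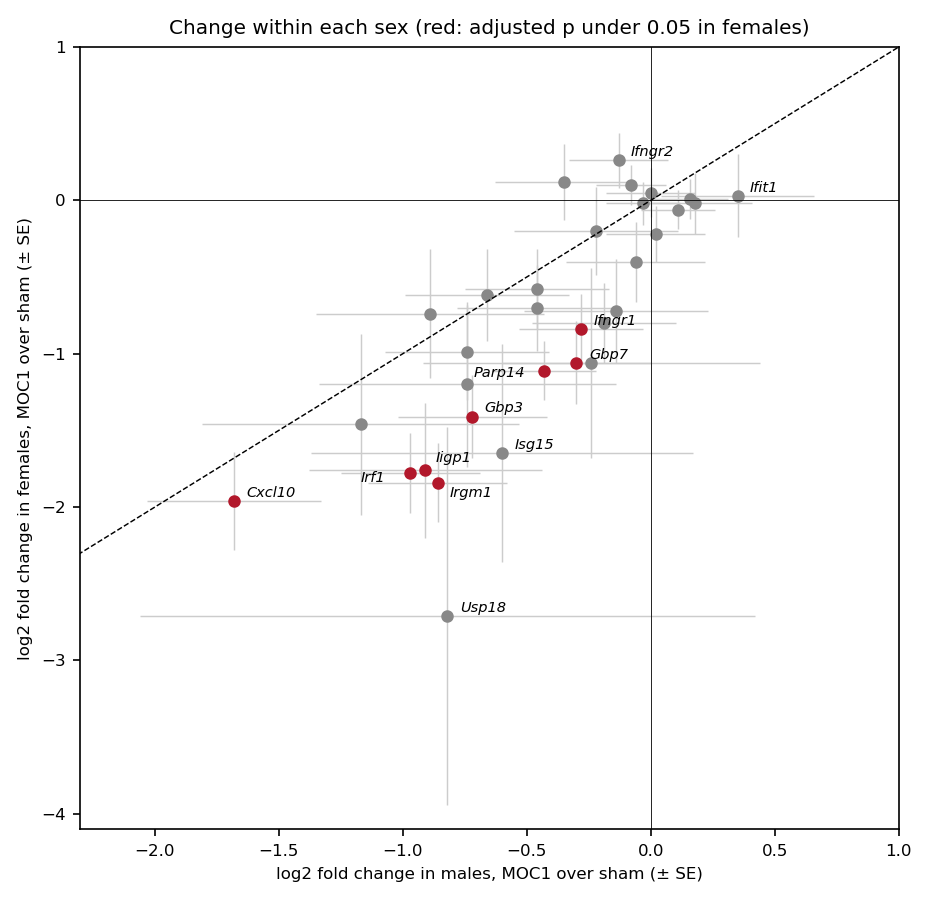
Log2 fold change with tumour in males (horizontal) against females (vertical), 1 point per interferon gene with standard errors, red where the adjusted p in females was under 0.05; the dashed line marks equal change. Cxcl10 lies near the line at −1.68 and −1.96, while Irgm1, Irf1, Gbp3 and Parp14 lie below it. Mx1 is left out.

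The rest of the pathway was described by 157 further genes, of which 119 had counts enough to test. Of these 3 fell and 3 rose, against 4.28% and 2.34% of all genes, and the median change was −0.43. The interferons themselves were almost unmeasured: of 19 ligand genes, 17 had no count in any library, which allows up to 0.0178 CPM over all libraries together, Ifnb1 had 10 counts in total and Ifna2 had 1. These libraries are of sorted cells, so ligand made elsewhere in the animal would not be counted.

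Among the receptor-associated kinases and regulators, 1 of 16 fell and 2 rose. Socs3, a feedback inhibitor of JAK kinases, fell from 227 ± 50.1 CPM in sham to 97.4 ± 15.8 in MOC1 with no overlap (log2 −1.20 ± 0.13, adjusted p = 1.55e-05 in edgeR). Jak1, the kinase shared by both receptor types, rose from 393 ± 62.4 to 501 ± 44.0 CPM (0.34 ± 0.08, adjusted p = 0.0105). Its groups overlapped, with sham males at 473 and 448 CPM and the lowest MOC1 library at 440. The Jak1 change in edgeR was 0.48 within females (adjusted p = 0.0066) and 0.17 within males (adjusted p = 0.802), and its interaction did not pass. Stat3, which serves cytokines of the interleukin-6 family and also interferon receptors, rose from 478 ± 30.7 to 592 ± 54.3 CPM with no overlap (0.30 ± 0.07, adjusted p = 0.0151). Both rises were lost when libraries were scaled to pan-neuronal markers (Jak1 0.06, adjusted p = 0.718; Stat3 0.02, adjusted p = 0.924), and Stat3 also narrowly missed without sham male 3 (0.29, adjusted p = 0.051). Scaled to satellite glia markers, Socs3 no longer passed (−0.05, adjusted p = 0.838). The kinase Jak2 differed by 0.21 ± 0.14 (adjusted p = 0.479).

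Of 14 genes of nucleic acid sensing, 1 fell and 1 rose. Tlr3, the endosomal receptor for double-stranded RNA, fell from 27.4 ± 10.6 to 14.4 ± 4.93 CPM (−0.82 ± 0.24, adjusted p = 0.0477 in edgeR), a call lost in 7 of the 11 fits that left out 1 library (without sham female 1: −0.70, adjusted p = 0.12) and turned to 0.31 when scaled to satellite glia markers. Sting1, the adaptor that responds to cytosolic DNA, was higher with tumour: sham libraries had 14.4, 4.45, 9.39, 7.19 and 6.48 CPM, and MOC1 had 10.6, 19.8 and 26.6 CPM at the lowest, median and highest. Sham female 1 was the one sham library within the MOC1 range. The log2 change was 1.23 ± 0.31 (adjusted p = 0.019 in edgeR), and the call was lost under pan-neuronal scaling (0.94, adjusted p = 0.0774), without sham male 3 (1.12, adjusted p = 0.0665) and without sham male 1 (1.16, adjusted p = 0.0576). Tbk1, the kinase below both sensors, differed by 0.15 ± 0.10 (adjusted p = 0.448).

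None of 7 further interferon regulatory factors and partners, none of 18 further Ifit, Oas and related antiviral genes and none of 10 further GBP and IRG genes passed in edgeR. Within the last list, Gbp9 differed by −1.27 ± 0.39 (adjusted p = 0.0568) and Irgm2 by −0.46 ± 0.23 (adjusted p = 0.296). Of 54 other interferon-stimulated genes, Trim34a, a ring-finger protein of the TRIM family, fell from 7.46 ± 2.93 to 1.98 ± 1.28 CPM with no overlap (−1.88 ± 0.51, adjusted p = 0.0302 in edgeR). That call was lost in 5 of the 11 fits that left out 1 library (without sham male 3: −1.73, adjusted p = 0.117). It was also lost when scaled to satellite glia markers (−0.77, adjusted p = 0.29) and with the endothelial and mural share as a covariate (−1.73, adjusted p = 0.0969). Znfx1, a helicase that senses double-stranded RNA, differed by 0.07 ± 0.11 (adjusted p = 0.846).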

How the data were processed

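The deposited values are gene-level read counts per library, with strand taken into account; per the submitters' processing notes, reads were trimmed with Trimmomatic 0.35, aligned to GRCm38 with STAR 2.7.1a and quantified with STAR and RSEM. Which annotation release they used is not stated in these sources. Totals naming no gene (18.7 to 21.5% of all counts) were left out. Of 55401 genes, 16817 passed edgeR's filter on low counts. The test was edgeR 4.0.16 (R 4.3.3) quasi-likelihood with TMM scaling, tumour and sex as terms, over all 11 libraries; a 4-group fit gave the changes within each sex and the interaction. Adjusted p-values are Benjamini-Hochberg over all genes tested. CPM of single genes is the count relative to the TMM-scaled total of the genes that passed the filter. Marker sums and the limits for counts of 0 use the total of all gene counts, without TMM. Lengths per kilobase come from GENCODE M21. Libraries of a group differed by more than sampling noise (chi-square per degree of freedom 13.3 to 39.6). Each was counted as 1 sample, though this spread does not show that they came from different mice.

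Genes were named as follows: all 33, the pathway genes that passed, and the best-expressed of each list. The 33 genes and all lists were chosen with earlier results of these data known. Alternatives were DESeq2 1.42.0, other scalings and filters, covariates and leaving out libraries; scripts were tested on simulated data. Libraries with the same number did not deviate together (15 pairs, r −0.04 to 0.05), so numbers were not treated as pairs. Floors cover counting error only.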

Additional observations from a re-analysis of the deposited data

Results flagged for a closer look

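In the 33 genes, each group of MOC1 or sham libraries was screened for a library far from the rest: the gap to the nearest other library, as a share of the whole range, had to pass Dixon's 95% value. For independent, normally distributed values, chance alone picks out about 5% of series. The CPM were not transformed and each series held both sexes, so that share is only a rough guide here. Of 66 series, 9 passed, 6 in MOC1 and 3 in sham, and the 3 in sham were all sham female 1.

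Sham female 1 stood apart for Irf7 (21.7 CPM, next 6.72), Ifit2 (108 CPM, next 69.4) and Rsad2 (88.2 CPM, next 21). This library also had 1813 CPM of endothelial and mural markers, against 280 to 479 in the other sham libraries; their part in these values was not tested. MOC1 female 3 stood apart for Ifit1 (53.7 CPM, next 37.2), Rsad2 (31.8 CPM, next 12.9) and Rnf213 (72.2 CPM, next 45.7). The remaining 3 were Ifnar2 in MOC1 female 1 (20.1 CPM, next 15.8), Oasl2 in MOC1 female 2 (100 CPM, next 91.3) and Mx1 in MOC1 male 2 (4.34 CPM, next 1.16). None of these 8 genes passed the test for tumour.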

How the results depend on the processing

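Of the 792 recomputed changes of single genes, 664 kept direction and side of the threshold, 31 lost the call, 34 gained one and 63 changed sign. The cause was not tested for any of them.

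The count of the 33 genes that fell (8) was 15 with pan-neuronal scaling, 1 with satellite glia scaling, 13 with no low-count filter, 0 with the glial share and 5 with the endothelial share as covariate, and 5 to 9 when 1 library was left out. The count that rose (0) was 17 with satellite glia scaling. Calls over all genes (1113) were 2064 with pan-neuronal scaling, 10218 with glial scaling (45 lower, 10173 higher), 0 with the glial covariate and 816 to 1129 with 1 library left out. Calls within females (8) were 14 with each marker scaling (all lower with pan-neuronal scaling, 2 lower and 12 higher with glial scaling), 0 with the glial and 5 with the endothelial covariate, 5 without sham female 1 and MOC1 female 3, and 5 to 9 with 1 library left out. Calls within males (1) were 2 with pan-neuronal scaling, 12 with glial scaling, 3 without a filter, 0 with the glial covariate, 2 and 3 without those 2 libraries or those and MOC1 male 2, and 0 to 1 with 1 library left out. The interaction kept 0 calls in every setting run.

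Further pathway genes that fell (3) were 8 in DESeq2, 18 with pan-neuronal and 0 with glial scaling, 14 without a filter, 6 without the sex term, 0 and 1 with the glial and endothelial covariates, 5 and 6 with 2 and 3 libraries left out, and 1 to 6 with 1 left out. Those that rose (3) were 0, 50 and 0 with pan-neuronal scaling, glial scaling and the glial covariate, and 1 to 4 with 1 library left out.

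Signs changed for these genes. With pan-neuronal scaling: Ifnar1 −0.27, Ifngr2 −0.18, Stat2 −0.20, Ifit1 −0.12, Ifit2 −0.22, Trim25 −0.25, Ifi27 −0.26. With glial scaling: Ifnar2 0.91, Ifngr1 0.52, Irf2 1.02, Irf7 0.38, Irf9 0.91, Igtp 1.11, Gbp2 0.62, Gbp3 0.02, Gbp7 0.40, Ifit3 0.34, Ifih1 0.76, Oasl2 1.12, Rsad2 0.20, Ifitm3 0.24, Rnf213 0.59, Xaf1 0.48, Ifi35 0.62, Parp14 0.31. With the glial covariate: Ifnar1 −0.04, Ifnar2 0.08, Ifngr1 0.11, Ifngr2 −0.59, Irf2 0.17, Ifit1 −1.26, Ifit2 −0.85, Usp18 0.89, Mx1 2.31, Ifi27 −0.22. With the endothelial covariate: Irf7 0.08, Oasl2 0.05, Ifi27 −0.03. With 2 libraries left out: Ifngr2 −0.04, Irf7 0.01, Oasl2 0.03, Ifi27 −0.05. With 3 left out: Irf7 0.12, Trim25 −0.01, Oasl2 0.05, Ifi27 −0.08. With total-count scaling: Ifnar1 −0.01, Ifi27 0.00. With 1 library left out, the range crossed 0 for Ifnar1 (−0.05 to 0.06), Trim25 (0.00 to 0.07), Ifi27 (−0.03 to 0.07), Igtp (−0.26 to 0.01), Oasl2 (−0.09 to 0.03), Ifit2 (−0.02 to 0.24) and Stat2 (0.00 to 0.12).

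With the replicate block, 7 of the 33 fell (Gbp7 −0.68, adjusted p = 0.0677) and 731 genes fell and 359 rose overall; the numbers share only a label, and 4 of 11 libraries correlated best with their own. Low counts limit Mx1, Usp18, Isg15 and Bst2 (Mx1 was at 0 in 3 libraries), and 2 sham males limit the test in males.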
